A study of Mus musculus with 18 samples.

Results

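Immortalized brown preadipocytes that had been treated with FGF6 for 8 h were compared with cells treated for 4 h, to ask which transcripts FGF6-treated cells gained and lost in that interval. The 2 groups were taken by the labels of the libraries, 3 libraries at 4 h and 3 at 8 h, which make 6 of the 18 libraries of the series. The other groups were vehicle-treated cells at 4, 8 and 24 h and FGF6-treated cells at 24 h, with 3 libraries each. The cells are a line of undifferentiated precursors of mouse brown fat, and recombinant FGF6 or vehicle was added in growth medium with serum, which itself holds growth factors. Replicates are separate libraries of this line, and the labels do not say whether they came from separate cultures, so p-values measure the spread between these libraries. Of 48023 genes in the deposited count table, 15071 passed the filter on low counts and were tested.

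The 6 FGF6 libraries at 4 and 8 h held between 24327816 and 33017444 counts, and the totals did not separate the 2 times (exact permutation test, two-sided p = 0.9, where the smallest possible p is 0.1). Each of the 18 libraries lay nearest the mean of its own group, but the vehicle 24 h library numbered 3 stood apart. In a chi-square test of counts over genes it gave 34.5 and 37.6 per degree of freedom against the other libraries of its group, while the other pairs within a group gave between 2.34 and 7.05. The 20 most counted genes took between 5.72% and 5.80% of the counts in the 4 h libraries and between 6.01% and 6.04% in the 8 h libraries. Mitochondrial transcripts took between 1.54% and 1.67% at 4 h and between 1.71% and 1.76% at 8 h, a share that holds next to nothing from 6 of the 13 protein-coding genes, which had 2 counts or fewer in each of the 18 libraries. Among the preadipocyte markers, 11 of 12 were expressed, and the preadipocyte factor Dlk1 had a count of 0 in all 18 libraries. Their summed level was 6717, 6668 and 6496 CPM, counts scaled to the library total, at 4 h and 7590.2, 7569 and 7327 CPM at 8 h. Vehicle sums rose too, from 6757, 6680 and 6593 CPM at 4 h to 8111, 8116 and 7798 CPM at 8 h. The markers did not rise as a group with FGF6. By the test defined below, 4 of the 11 rose and 5 fell, with a median log2 fold change of -0.14. The mean of Col1a1, a member that rose, went from 1197 to 1585 CPM with FGF6. The leukocyte markers summed to 30.1, 29.3 and 29.6 CPM at 4 h and 22.5, 23.9 and 22.3 CPM at 8 h, mostly Cd68 and Cd14, while the defining markers Ptprc and Adgre1 were at 2 counts or fewer in each library and Cd3e at 0. What part such cells had in the results was not tested. Ucp1, the uncoupling protein of brown fat, had no count in the FGF6 libraries at 4 or 8 h, which allows a level of up to 0.123 CPM.

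FGF6 is a secreted growth factor that binds FGF receptors on the cell surface together with heparan sulfate. The receptors signal through RAS and the kinases ERK1/2, through PI3K and through phospholipase C, and growth-factor signals set off waves of transcription, in which immediate early genes come first and delayed genes, cell-cycle genes and biosynthetic genes follow. Interferon-stimulated genes are a separate program, switched on downstream of interferon receptors.

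Between 4 and 8 h of FGF6, 7259 genes changed (48.2% of those tested), of which 3636 were higher (24.1%) and 3623 lower (24.0%) at 8 h. The large changes went mostly downward. Changes of at least 2-fold were found for 739 genes (4.90%), and 583 of these fell (3.87%) while 156 rose (1.04%). At the study's threshold, an adjusted p under 0.25, 9694 genes were called (64.3%). The groups did not overlap for 8365 genes (55.5% of those tested). A call here is a Benjamini-Hochberg adjusted p under 0.05 in edgeR's quasi-likelihood test over all 18 libraries, and log2 fold changes are 8 h over 4 h, given ± the standard error. The median log2 fold change over the 15071 genes was 0.0035. Without the composition factors, scaled by library totals alone, the split of the calls moved from 50.1% to 61.8% higher and the median to 0.066, while the larger number of at least 2-fold falls (517 against 187 rises) stayed. A fit of the libraries at 4 and 8 h alone called 7341 genes, 717 of them at least 2-fold, and without the vehicle 24 h library numbered 3, a choice made after seeing the data, the fit called 7301 and 744.

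Part of this change also took place in vehicle-treated cells, which share no library with the FGF6 groups and shared the medium and the hours in culture. With vehicle, 6475 genes changed between 4 and 8 h (43.0%). Of the 3636 genes that rose with FGF6, 1864 also rose with vehicle (51.3%), against 21.2% of all genes. Of the 3623 that fell with FGF6, 1819 also fell with vehicle (50.2%), against 21.7% of all genes. Across genes, which are not independent replicates, the log2 fold changes of the 2 treatments had a Pearson r of 0.307. At least 2-fold changes numbered 341 with vehicle (2.26%), of which 246 were lower (1.63%). A test of the difference between the treatments was passed by 4615 genes (30.6%), with a difference of at least 2-fold for 526 (3.49%). The fit of the 4 and 8 h libraries gave 6522 for vehicle and 4760 for the difference, and the fit without vehicle 24 h library 3 gave 6493 and 4738. Among the genes that fell at least 2-fold with FGF6, 366 of 583 fell more with FGF6 than with vehicle. Among those that rose at least 2-fold, 75 of 156 rose more. Over all genes the difference was lower for 15.1% and higher for 15.5%. The difference uses the same FGF6 libraries that picked these genes, so counts in this direction were favored in advance, and no conclusion is drawn from them. The plot of the changes under both treatments shows which groups of genes lay on and off the diagonal.

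The strand setting of the counting is not given in the sources used here, so where another annotated gene lies on the same bases its reads cannot be told apart. Among the genes described below this held for 2090 of 8191 exonic bases of Vcl, 406 of 1539 exonic bases of Ankrd37, 665 of 2861 exonic bases of Ccn2, 586 of 2876 exonic bases of Hoxa7 and 606 of 3123 of Txnip. For Timp3, Gbp7, Tmem200a, Ncapg, Hmgcs1, Dusp5 and Fgfr3 the shared part was 1733 of 8144, 637 of 5614, 798 of 6677, 944 of 7066, 557 of 4594, 547 of 2473 and 998 of 7158 bases in that order.

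**Figure D1:**
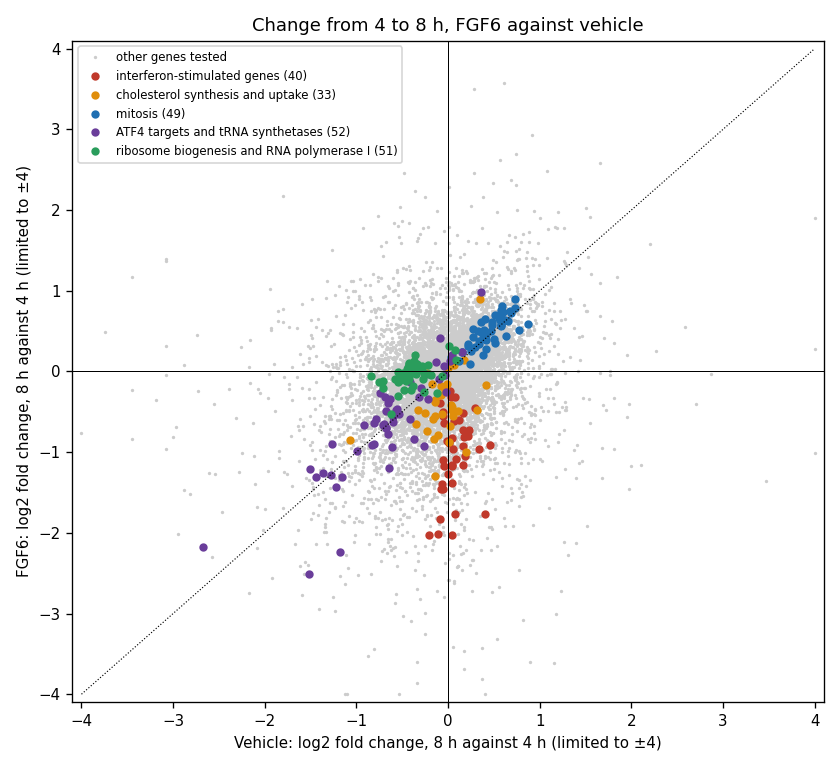
Log2 fold change from 4 to 8 h with vehicle (horizontal) and with FGF6 (vertical); each grey point is a gene, colored points are genes of 5 lists, and values beyond 4 are drawn at 4. Mitosis genes and ATF4 targets lie along the dotted diagonal, interferon-stimulated genes lie below 0 on the vertical axis near 0 on the horizontal one, and ribosome biogenesis genes lie near 0 vertically and below 0 horizontally.

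The interferon-stimulated genes fell together between 4 and 8 h of FGF6. Of 40 listed and tested, 39 fell and 0 rose, with a median log2 fold change of -0.94 and a range from -2.02 to -0.24, against 24.0% of all genes lower. At least 2-fold falls were seen in 18. With vehicle, 0 fell and 1 rose, with a median of 0.043, and the change was lower with FGF6 than with vehicle for 36 of the 40. The one gene without a call was Bst2, which encodes tetherin and whose log2 fold change was -0.32 ± 0.14 (adjusted p = 0.0600). In these bulk samples, fewer expressing cells and less RNA per cell cannot be told apart.

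Promoters of the 4 members with the largest falls are shown for the interferon-stimulated response element, searched on either strand as GAAA, any 2 bases and GAAA again, and their complement TTTC, any 2 bases and TTTC. Bases are from RefSeq (GRCm38.p6), 5′ to 3′ in the direction of the gene and before its start, with the matched bases in capitals. Distances are counted from the RefSeq start, which for Gbp2 lies 61 bases inside the gene as annotated, so that its match is within the annotated span, and for the other 3 lies 2 to 13 bases before it.
Gbp2, chr3:142620584-142620633, plus strand: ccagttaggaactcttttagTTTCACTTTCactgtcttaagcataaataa
Gbp7, chr3:142530263-142530312, plus strand: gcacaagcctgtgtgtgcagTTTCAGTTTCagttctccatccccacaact
Ifit3, chr19:34583353-34583436, plus strand: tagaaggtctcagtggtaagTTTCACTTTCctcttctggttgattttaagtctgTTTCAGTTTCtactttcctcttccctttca
Ifit3b, chr19:34607749-34607832, plus strand: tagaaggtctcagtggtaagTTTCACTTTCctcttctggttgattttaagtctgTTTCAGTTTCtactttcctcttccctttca
The match lay 59 bases before the RefSeq start in Gbp2 and 53 in Gbp7. Ifit3 held matches 156 and 122 bases before its start and Ifit3b 188 and 154, and the stretches shown for these neighboring copies were identical at 84 of 84 bases. Of 36 promoters of listed genes, counted from 250 bases before to 50 after each start, 16 held the motif (44.4%), against 3.44% of 32851 promoters. A match of letters is no measurement of binding.

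Gbp2 (chr3:142620602-142638008, GRCm38), a guanylate-binding protein that attacks the vacuoles of intracellular pathogens, was at 166, 207 and 133 CPM at 4 h and 46.0, 36.8 and 41.8 CPM at 8 h. The 8 h libraries were all below the 4 h libraries, and the log2 fold change was -2.02 ± 0.19 (adjusted p = 2.41e-09), a 4.07-fold fall. Its neighbor Gbp7 (chr3:142530342-142550149), of the same family, was at 94.1, 114 and 77.1 CPM at 4 h and 25.1, 19.9 and 25.6 CPM at 8 h. Its log2 fold change was close to that of Gbp2 (-2.02 ± 0.19, adjusted p = 1.92e-09), and the groups did not overlap. Ifit3 (chr19:34583531-34588731), an RNA-response protein with tetratricopeptide repeats, was at 274, 332 and 188 CPM at 4 h and 75.8, 50.2 and 71.5 CPM at 8 h. Its log2 fold change was -2.01 ± 0.23 (adjusted p = 9.70e-08), and that of Ifit3b was -1.83 ± 0.25. Reads shared by Ifit3 and Ifit3b, or by members of the Gbp family, could have been assigned to either copy or dropped, so the split between copies is uncertain.

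The vehicle libraries gave other values for these genes. Gbp2 was at 127, 208 and 239 CPM at 4 h and 121, 180.0 and 195 CPM at 8 h with vehicle, a log2 fold change of -0.21, and the difference between treatments was -1.82 ± 0.26 (adjusted p = 5.71e-06). Ifit3 was at 126, 264 and 278 CPM at 4 h and 140.3, 219.5 and 259.9 CPM at 8 h with vehicle, and its difference was -1.90 ± 0.32 (adjusted p = 5.69e-05). In both vehicle groups the library numbered 1 lay below the others, for 40 of 40 genes of the list. Summed over the list, the level was 6837, 9417 and 10056 CPM in vehicle at 4 h and 7695, 9358 and 10075 CPM at 8 h. With FGF6 the sum was 8566, 9245 and 7077 CPM at 4 h and 5458, 4295 and 4876 CPM at 8 h, so each 8 h library was below each 4 h library. FGF6 library 2 was the highest of the 4 h libraries for 38 of the 40 genes, and without any one of the 6 FGF6 libraries 37 to 40 genes were lower. When both vehicle libraries numbered 1 were left out, a choice made after seeing the data, the difference was called for 35 of the 40 genes.

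At 24 h of FGF6 the sum had come to 1363, 1305 and 1499 CPM, and the 24 h mean was below the 8 h mean in 40 of 40 genes. Gbp2 was then at 8.27 ± 2.14 CPM and Ifit3 at 12.3 ± 1.52 CPM (SD, n = 3). Interferon-inducible genes outside the list were among the largest falls of all genes. Ifi47 was at 27.2, 35.2 and 19.5 CPM at 4 h and 3.32, 1.95 and 4.60 CPM at 8 h, an 8.55-fold fall (-3.10 ± 0.31, adjusted p = 7.24e-09), and -0.40 with vehicle. Gbp5 was at 9.28, 10.996 and 6.58 CPM at 4 h and 1.40, 1.11 and 1.64 CPM at 8 h, and the log2 fold change was -2.72 ± 0.29. These genes were at low levels by 8 h. Slfn5, a Schlafen family member, was at 4.36, 4.91 and 2.40 CPM at 4 h and 0.814, 0.202 and 0.493 CPM at 8 h (-2.95 ± 0.36), and it also fell with vehicle (-1.40). Ifit1bl1, annotated as an Ifit1-like gene, was at 6.03, 6.28 and 3.41 CPM at 4 h and 0.326, 0.471 and 0.699 CPM at 8 h and fell in both treatments, by 3.44 on the log2 scale with FGF6 and by 0.81 with vehicle.

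**Figure D2:**
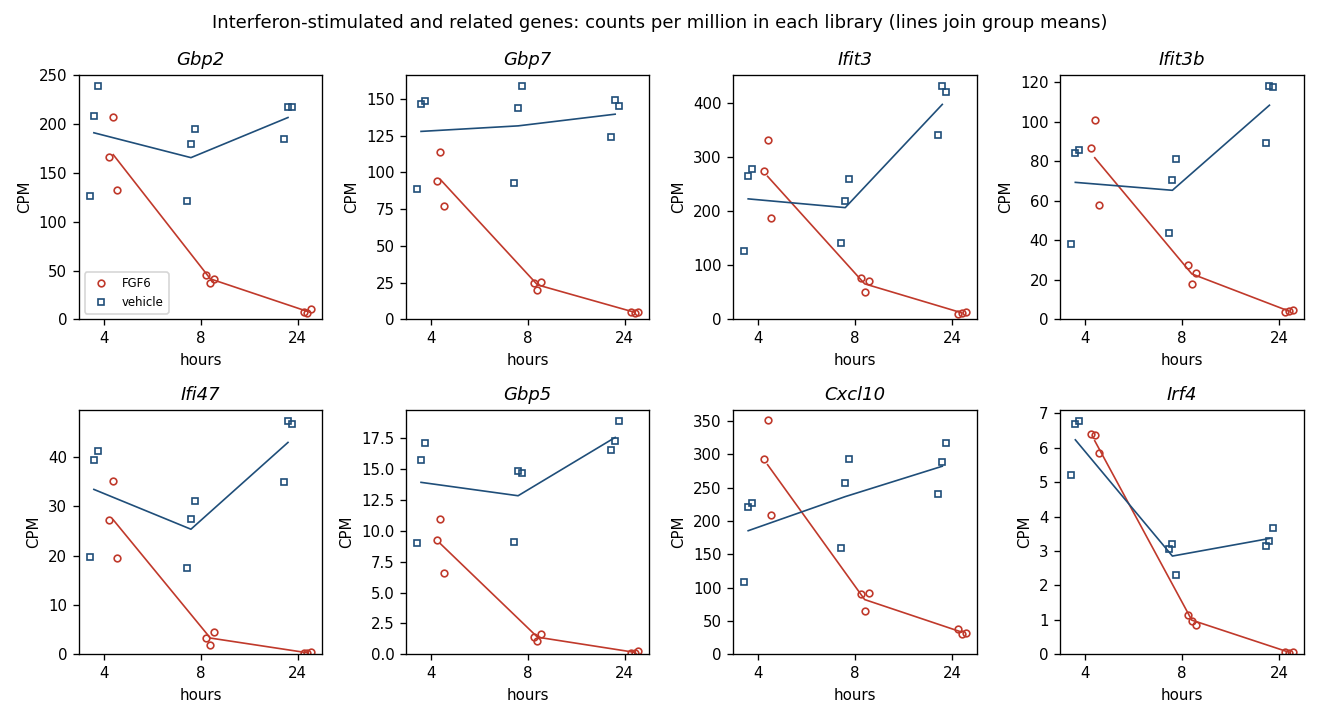
CPM in each library (open symbols) at 4, 8 and 24 h, with time as categories, for FGF6 (circles) and vehicle (squares); lines join the means of 3 libraries. For Gbp2 the FGF6 libraries at 8 h lie at 46.0, 36.8 and 41.8 CPM, below the 4 h libraries and the vehicle libraries, and at 24 h lower still.

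Inflammatory genes driven by NF-kB fell as well. Of the NF-kB list, 27 of the 46 fell and 6 rose, with a median log2 fold change of -0.36. With vehicle 17 fell and 10 rose with a median of -0.100, and the change differed between treatments for 26. Cxcl10, a chemokine that attracts T cells and is also induced by interferon, was at 293, 351 and 209.7 CPM at 4 h and 89.8, 64.2 and 92.4 CPM at 8 h, that is, a log2 change of -1.80 ± 0.22 (adjusted p = 2.46e-07) with no overlap, against 0.35 with vehicle, a difference of -2.15 (adjusted p = 6.91e-06). Saa3, a serum amyloid A acute-phase protein, was at 893, 1085 and 1026 CPM at 4 h and 334, 291 and 303 CPM at 8 h (-1.70 ± 0.12). Lcn2, which binds bacterial siderophores, was at 200.3, 226 and 210.5 CPM at 4 h and 77.4, 68.9 and 66.1 CPM at 8 h (-1.58 ± 0.083). Both of these also fell with vehicle, by 0.88 and 0.69 on the log2 scale, and fell more with FGF6, with differences of -0.81 and -0.90. By 24 h Saa3 was at 2.77 CPM and Lcn2 at 5.09 CPM. Nos2, the inducible nitric oxide synthase, was at 1.55, 1.82 and 1.34 CPM at 4 h and 0.456, 0.134 and 0.164 CPM at 8 h (-2.59 ± 0.31) and changed by 0.068 with vehicle (adjusted p = 0.748). Serpina3c, a serine protease inhibitor of a cluster of close copies, was at 1.85, 2.77 and 1.87 CPM at 4 h and 0.358, 0.235 and 0.205 CPM at 8 h (-2.996 ± 0.28), with counts that other members of that cluster could share.

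Genes of cholesterol synthesis and uptake were lower at 8 h than at 4 h. SREBP2 is the factor that turns on this pathway when sterols are low in the endoplasmic reticulum. Of the list, 26 of the 33 fell and 1 rose, with a median log2 fold change of -0.48. With vehicle 10 fell and 6 rose with a median of -0.065, and the change differed between treatments for 23, lower with FGF6 in 21. Hmgcs1, which makes HMG-CoA for the mevalonate pathway, was at 209.8, 189 and 187 CPM at 4 h and 105, 92.9 and 94.3 CPM at 8 h. The groups did not overlap, and the log2 fold change was -1.003 ± 0.053 (adjusted p = 4.54e-14), whereas it was 0.20 with vehicle (difference -1.20 ± 0.073, adjusted p = 8.60e-12). Insig1, a sterol-regulated anchor of SREBP processing, was at 113, 95.1 and 100.4 CPM at 4 h and 60.5, 55.5 and 51.9 CPM at 8 h (-0.87 ± 0.061), and 0.013 with vehicle. Both were higher again at 24 h of FGF6, Hmgcs1 at 424 ± 13.5 CPM and Insig1 at 232 ± 11.2 CPM, and vehicle at 24 h was at 799 ± 50.3 and 342 ± 12.1 CPM. With FGF6, 27 of the 33 genes had a higher mean at 24 h than at 8 h. Abca1, which exports cholesterol to lipoproteins and is a target of the sterol receptor LXR, fell to the largest extent in the list (13.4, 13.8 and 13.7 CPM at 4 h and 6.35, 4.34 and 6.08 CPM at 8 h, -1.29 ± 0.10) and was at 1.46 CPM at 24 h. Abcg1, another sterol exporter, was the gene that rose, at 2.74, 2.65 and 3.17 CPM at 4 h and 5.24, 5.04 and 5.59 CPM at 8 h (0.90 ± 0.12, adjusted p = 9.62e-07). The sterol element TCACNCCAC was found in 1 of 32 promoters of the list (3.13%, against 1.24% of all promoters), and CCAAT, bound by NF-Y, in 22 of 32 (68.8%, against 37.4%).

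Lipid genes and adipogenic factors also fell more often than they rose. Of the fatty acid and lipid storage list, 26 of the 42 fell and 3 rose, with a median log2 fold change of -0.20. With vehicle 15 fell and 8 rose with a median of -0.071, and the change differed between treatments for 17. Plin4, a coat protein of lipid droplets, was at 157, 147 and 144 CPM at 4 h and 66.3, 59.1 and 62.1 CPM at 8 h (-1.26 ± 0.052, adjusted p = 5.47e-16), against -0.28 with vehicle, a difference of -0.97. Mgll, which hydrolyzes monoglycerides, was at 1.07, 1.59 and 1.14 CPM at 4 h and 0.521, 0.471 and 0.411 CPM at 8 h (-1.44 ± 0.32). Cd36, a fatty acid transporter, had at most 5 counts in each of the 6 libraries. Of the adipogenic and brown fat factors, 18 of the 38 fell and 2 rose, with a median log2 fold change of -0.15, and with vehicle 13 fell and 6 rose with a median of -0.081, and the change differed between treatments for 15. The share of these factors called with FGF6, 52.6%, was near that over all genes (48.2%). For the difference it was 39.5%, against 30.6%. Ebf1, an early factor of the adipocyte lineage, was at 78.5, 87.3 and 92.1 CPM at 4 h and 36.2, 35.9 and 36.2 CPM at 8 h (-1.25 ± 0.050, adjusted p = 3.14e-16), and -0.11 with vehicle. Zfp423, a zinc-finger protein of committed preadipocytes, was at 5.29, 5.23 and 6.58 CPM at 4 h and 2.08, 2.62 and 2.22 CPM at 8 h (-1.29 ± 0.16). Irf4, an interferon regulatory factor that in fat controls lipolysis and thermogenic genes, was at 6.397, 6.37 and 5.85 CPM at 4 h and 1.14, 0.975 and 0.863 CPM at 8 h (-2.63 ± 0.17), and it fell by 1.12 on the log2 scale with vehicle. The mature adipocyte markers were low throughout: 5 of 10 were tested, of which 3 fell, and their summed level, nearly all of it Fabp4, was 97.7, 89.1 and 95.2 CPM at 4 h and 72.7, 68.6 and 71.2 CPM at 8 h. Lep and Pck1 had a count of 0 in all 18 libraries.

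Hypoxia and glycolysis genes, many of them targets of HIF-1, fell more often than they rose, and some were higher again at 24 h. Of the list, 23 of the 36 fell and 5 rose, with a median log2 fold change of -0.43. With vehicle 15 fell and 7 rose with a median of -0.086, and the change differed between treatments for 25. Vegfa, which drives vessel growth, was at 1192, 1171 and 1114 CPM at 4 h and 518, 487 and 479 CPM at 8 h (-1.23 ± 0.040, adjusted p = 6.31e-18) and fell with vehicle as well (-0.94). Ndrg1, a hypoxia-induced stress protein, was at 43.7, 43.4 and 43.8 CPM at 4 h and 20.5, 19.7 and 21.1 CPM at 8 h (-1.10 ± 0.055), against -0.29 with vehicle, a difference of -0.81. No call was made for the vehicle change of Ankrd37 (-0.039), a small HIF-1 target that with FGF6 was at 1.96, 2.07 and 2.40 CPM at 4 h and 1.14, 1.04 and 0.863 CPM at 8 h (-1.06 ± 0.22). At 24 h of FGF6, Ndrg1 was at 75.6 ± 1.28 CPM and Ankrd37 at 12.3 ± 0.934 CPM, above their 4 h levels, while Vegfa was at 395 ± 8.68 CPM. With vehicle at 24 h, Ndrg1 was at 103 ± 5.88 CPM, Ankrd37 at 4.35 ± 0.794 CPM and Vegfa at 203 ± 12.3 CPM. The letters TACGTG, the core bound by HIF-1, were in 9 of 51 promoters of the list (17.6%, against 3.23% of all promoters).

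Genes of cell division rose in both treatments. Of the mitosis list 49 of 49 rose and 0 fell, with a median of 0.52, against 24.1% of all genes higher, and no change reached 2-fold. With vehicle the numbers were close, with 48 rising and a median of 0.48, and 13 genes differed between treatments. Ncapg, a condensin subunit that compacts chromosomes, was at 48.03, 47.9 and 48.1 CPM at 4 h and 85.5, 90.7 and 91.8 CPM at 8 h (0.90 ± 0.038, adjusted p = 7.83e-16), and rose by 0.73 with vehicle. Aurkb, the kinase of the chromosomal passenger complex, was at 38.5, 39.2 and 38.0 CPM at 4 h and 66.7, 66.5 and 70.0 CPM at 8 h (0.81 ± 0.044). The mean levels of Aurkb were 38.6 ± 0.593 and 67.7 ± 1.95 CPM with FGF6 and 58.0 ± 2.25 and 87.3 ± 2.71 CPM with vehicle. Mitotic promoters often hold the cell-cycle homology region, searched as TTTGAA on either strand, which was in 33 of 43 promoters of the list (76.7%, against 17.9% of all promoters). Bub1 and Birc5 held no TTTGAA before their starts. CCAAT was in 34 of 43 (79.1%, against 37.4%). The TTTGAA of Ncapg, 30 bases before its RefSeq start, is shown in capitals.
Ncapg, chr5:45669875-45669920, plus strand: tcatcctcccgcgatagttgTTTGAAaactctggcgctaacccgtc

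Genes of DNA replication rose more with FGF6 than with vehicle. Of the list, 42 of 45 rose and 0 fell with FGF6, with a median of 0.36. With vehicle 34 rose and 2 fell with a median of 0.21, and the rise was larger with FGF6 for 26 genes and smaller for 0. The list summed to 6159, 6311 and 6236 CPM at 4 h and 7560, 7744 and 7804 CPM at 8 h with FGF6. Vehicle sums were 6293, 6410 and 6551 CPM at 4 h and 7087, 7348 and 7308 CPM at 8 h. Clspn, the adaptor of the replication checkpoint, was at 39.6, 37.7 and 43.5 CPM at 4 h and 83.4, 87.4 and 86.1 CPM at 8 h. The 8 h libraries all lay above the 4 h libraries, and the log2 fold change was 1.09 ± 0.051 (adjusted p = 4.96e-15) against 0.52 with vehicle, a difference of 0.57 (adjusted p = 9.16e-07). Cdc6, which loads the MCM helicase, was at 41.4, 42.4 and 40.2 CPM at 4 h and 75.4, 79.2 and 78.8 CPM at 8 h (0.91 ± 0.046), with a difference of 0.60. Tk1, thymidine kinase, was at 52.8, 52.5 and 50.3 CPM at 4 h and 98.4, 99.1 and 96.4 CPM at 8 h (0.92 ± 0.037). E2f2, an activator of S-phase genes, was at 5.66, 5.07 and 4.96 CPM at 4 h and 13.6, 13.5 and 13.8 CPM at 8 h (1.38 ± 0.098, adjusted p = 1.42e-11), with a difference of 0.89 from vehicle. Vehicle means at 4 and 8 h were 63.4 and 91.1 CPM for Clspn and 76.3 and 113 CPM for Tk1. These lay above the FGF6 means at both times. For Cdc6 they were 44.8 and 55.7 CPM and for E2f2 6.73 and 9.49 CPM. Here the FGF6 mean was lower at 4 h and higher at 8 h. Among the G1 cyclins and CDK inhibitors, 13 of 27 rose and 5 fell. Cdkn1a, which encodes the inhibitor p21, was at 341, 336 and 318 CPM at 4 h and 192, 199 and 192 CPM at 8 h (-0.77 ± 0.039), and Ccnd2, cyclin D2, fell in both treatments (-0.71 and -0.70, with a difference of -0.014 ± 0.051). The letters TTTCCCGC, bound by E2F, were in 6 of 43 promoters of the replication list (13.95%, against 1.07% of all promoters).

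Replication-dependent histone transcripts lack long poly(A) tails, and 7 of 19 listed were tested, of which 5 rose and 0 fell. Hist1h1c, a linker histone, was at 5.47, 7.46 and 6.95 CPM at 4 h and 18.5, 17.2 and 16.7 CPM at 8 h (1.39 ± 0.11, adjusted p = 5.09e-11), and rose by 0.78 with vehicle. Its 8 h level with FGF6, 17.5 ± 0.953 CPM, stood beside a vehicle level at 4 h of 18.2 ± 1.76 CPM. The libraries at 8 h did not overlap with those at 4 h for this gene.

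Genes of ribosome production fell with vehicle, and with FGF6 some rose and some fell. Of 51 ribosome biogenesis and RNA polymerase I genes, 9 rose and 14 fell with FGF6 (median -0.026), a share of 45.1% beside 48.2% over all genes, against 0 that rose and 46 that fell with vehicle (median -0.40). The difference passed the test in 45, and FGF6 minus vehicle was positive in 44 of them. Npm1, a nucleolar chaperone of ribosome assembly, was at 425, 435 and 442 CPM at 4 h and 527, 550.5 and 536 CPM at 8 h (0.31 ± 0.035, adjusted p = 4.37e-08), against 0.0063 with vehicle, a difference of 0.30 (adjusted p = 3.31e-05). Ubtf, the factor that opens ribosomal DNA, fell in both treatments, by 0.53 on the log2 scale with FGF6 and by 0.63 with vehicle (difference 0.10 ± 0.044, adjusted p = 0.0866). With library totals in place of the composition factors, 16 genes of the list rose and 8 fell with FGF6.

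Of 77 cytosolic ribosomal protein genes, 40 rose and 0 fell with FGF6 (median 0.16), and 5 rose and 20 fell with vehicle (median -0.046). The share called was 51.9% with FGF6 and 32.5% with vehicle, beside 48.2% and 43.0% over all genes. Over all genes, 24.1% were higher and 24.0% lower with FGF6. Rpl6 was at 79.2, 81.0 and 76.4 CPM at 4 h and 96.1, 94.5 and 100.05 CPM at 8 h (0.30 ± 0.034), and -0.0093 with vehicle (difference adjusted p = 2.53e-05). Rpl7a was at 87.5, 87.3 and 88.4 CPM at 4 h and 112, 107 and 116 CPM at 8 h (0.35 ± 0.035). These genes have many processed copies in the genome, so reads could have been lost or shared among copies, and their counts are uncertain. CTCTTTC, part of the initiator-type element of such genes, was in 21 of 67 promoters (31.3%, against 8.16% of all promoters).

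Genes of the ATF4 program, which supplies amino acids and charged tRNAs under stress or growth, fell in both treatments. Of 52 ATF4 targets and tRNA synthetases, 42 fell and 6 rose with FGF6 (median -0.58), and 44 fell and 1 rose with vehicle (median -0.64). The change still differed between treatments for 46.2% of the list, against 30.6% of all genes. It was higher with FGF6 for 17 genes and lower for 7. Slc7a11, the cystine importer, was at 45.3, 50.3 and 50.01 CPM at 4 h and 11.4, 9.75 and 10.97 CPM at 8 h with FGF6 (-2.18 ± 0.084, adjusted p = 1.57e-16). With vehicle it was at 23.2, 29.4 and 25.7 CPM at 4 h and 4.73, 4.00 and 3.53 CPM at 8 h (-2.67 ± 0.10), and the fall was smaller with FGF6 by 0.49 (adjusted p = 0.00771). Vldlr, a lipoprotein receptor, was at 13.8, 18.3 and 17.6 CPM at 4 h and 2.90, 3.29 and 2.47 CPM at 8 h (-2.51 ± 0.13), against -1.52 with vehicle, a difference of -0.997. Gpt2, mitochondrial alanine aminotransferase, was at 131, 144 and 149 CPM at 4 h and 53.7, 50.6 and 52.96 CPM at 8 h (-1.43 ± 0.051), and -1.22 with vehicle. ATF4 binds with C/EBP proteins to elements searched here as TGATGNAA on either strand, in 15 of 47 promoters of the list (31.9%, against 3.97% of all promoters). Gpt2 held no match before its start, and Fgf21, a secreted endocrine FGF, held 1 at 139 bases before. The matches are in capitals in the stretches shown for Slc7a11, 66 and 47 bases before its start, and for Vldlr, 200 bases before. Vldlr has 2 RefSeq starts, and the stretch belongs to the one that lies 536 bases inside the gene as annotated, while the other held no match.
Slc7a11, chr3:50443633-50443699, minus strand: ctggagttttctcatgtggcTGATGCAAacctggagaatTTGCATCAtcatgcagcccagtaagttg
Vldlr, chr19:27216800-27216847, plus strand: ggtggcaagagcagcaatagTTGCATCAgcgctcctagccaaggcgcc

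Hmox1, heme oxygenase, which degrades heme and answers oxidative stress through NRF2, fell steeply in both treatments. It was at 989, 1076 and 982 CPM at 4 h and 233, 213 and 223 CPM at 8 h (-2.19 ± 0.046, adjusted p = 1.62e-21). Vehicle gave 972, 1082 and 1069.9 CPM at 4 h and 252, 242 and 244 CPM at 8 h, that is, a log2 change of -2.08, and the difference of -0.11 ± 0.062 did not pass the test (adjusted p = 0.208). Of the NRF2 list, 15 of the 25 fell and 4 rose, with a median log2 fold change of -0.17, and with vehicle 18 fell and 3 rose with a median of -0.20, and the change differed between treatments for 16. Mgst1, a microsomal glutathione transferase, fell with FGF6 (90.0, 88.9 and 83.8 CPM at 4 h and 39.2, 33.5 and 37.3 CPM at 8 h, -1.26 ± 0.049) and fell by 0.16 on the log2 scale with vehicle, a difference of -1.10 (adjusted p = 8.36e-12). The antioxidant element, searched as TGACNNNGC, was in 9 of 27 promoters of the NRF2 list (33.3%, against 12.4% of all promoters). The metallothioneins Mt1 and Mt2, metal-binding proteins also induced by glucocorticoids, were among the genes that fell in both treatments. Mt1 was at 1375, 1428 and 1313 CPM at 4 h and 653, 666 and 638 CPM at 8 h (-1.07 ± 0.035) and changed by -0.83 with vehicle.

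Immediate early genes, whose transcripts peak soon after a growth signal, fell more often than they rose in both treatments. Of the list, 20 of the 34 fell and 4 rose, with a median log2 fold change of -0.29, and with vehicle 26 fell and 2 rose with a median of -0.38, and the change differed between treatments for 24. Arc, an activity-regulated gene best known from neurons, was at 269, 275 and 239.8 CPM at 4 h and 39.2, 39.0 and 39.0 CPM at 8 h (-2.74 ± 0.059, adjusted p = 1.62e-21), a 6.70-fold fall, and fell by 2.17 on the log2 scale with vehicle from a lower level of 88.9 ± 5.22 CPM. Egr2, a zinc-finger factor downstream of ERK, was at 142, 142 and 145 CPM at 4 h and 60.6, 57.7 and 56.8 CPM at 8 h (-1.29 ± 0.058). With vehicle it was at 9.18, 12.1 and 8.35 CPM at 4 h and 3.76, 3.91 and 4.18 CPM at 8 h, that is, a log2 change of -1.33, and the difference was 0.038 ± 0.12 (adjusted p = 0.855). Ccn2, a secreted target of SRF and YAP, was at 229.9, 241 and 246 CPM at 4 h and 94.5, 90.8 and 88.4 CPM at 8 h (-1.39 ± 0.075) and fell more with vehicle (-2.11, difference 0.72, adjusted p = 1.63e-05). Of the Kruppel-like factors, 9 of the 14 fell and 0 rose, with a median log2 fold change of -0.37. Klf4 fell in both treatments (-0.79 and -0.71).

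ERK signaling induces its own inhibitors, the dual-specificity phosphatases that remove phosphate from ERK and the Sprouty and Spred proteins that act on RAS. Of this list, 15 of the 28 fell and 6 rose, with a median log2 fold change of -0.13, and with vehicle 13 fell and 4 rose with a median of -0.17, and the change differed between treatments for 10. Dusp4 was at 174, 179 and 178 CPM at 4 h and 81.3, 87.2 and 81.5 CPM at 8 h (-1.09 ± 0.056, adjusted p = 2.61e-14), and Dusp5 was at 498, 519 and 500.5 CPM at 4 h and 333, 317 and 313 CPM at 8 h (-0.66 ± 0.044). With vehicle, Dusp4 was at 11.1 ± 0.207 CPM at 4 h and 4.06 ± 0.476 CPM at 8 h. Dusp5 was at 46.2 ± 1.84 and 20.9 ± 1.52 CPM with vehicle at these times, so both fell with vehicle as well. Spred3 rose, at 16.1, 16.4 and 16.8 CPM at 4 h and 26.0, 29.8 and 30.2 CPM at 8 h (0.80 ± 0.071), and continued to 47.1 ± 1.49 CPM at 24 h.

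FGF receptors, their coreceptors and the ETS factors downstream fell more often than they rose. Of the ETS factors and FGF receptors, 15 of the 23 fell and 4 rose, with a median log2 fold change of -0.16, and with vehicle 12 fell and 1 rose with a median of -0.17, and the change differed between treatments for 10. Sdc1, a heparan sulfate proteoglycan that presents growth factors, was at 1454, 1536 and 1448 CPM at 4 h and 545, 531 and 513 CPM at 8 h (-1.48 ± 0.038, adjusted p = 7.62e-20), and -1.15 with vehicle. Fgfr1 was at 652, 684 and 683 CPM at 4 h and 353, 332 and 339 CPM at 8 h (-0.98 ± 0.036) and fell by 0.93 on the log2 scale with vehicle (difference -0.046 ± 0.051, adjusted p = 0.553). Fgfr3 was low and went the other way, at 2.44, 3.03 and 2.48 CPM at 4 h and 3.52, 4.20 and 4.03 CPM at 8 h (0.55 ± 0.16, adjusted p = 0.00517), and -0.17 with vehicle. Etv1, an ETS factor downstream of FGF signaling, rose from a low level (0.629, 0.701 and 0.528 CPM at 4 h and 2.44, 2.02 and 1.64 CPM at 8 h, 1.71 ± 0.23) and was at 8.54 ± 0.420 CPM at 24 h. Klb, the coreceptor of endocrine FGFs, was low and fell, at 0.444, 0.701 and 0.406 CPM at 4 h and 0.195, 0.0672 and 0.205 CPM at 8 h (-1.75 ± 0.50).

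Several genes of the EGF receptor system fell with FGF6 and rose with vehicle. Of that list, 7 of the 14 fell and 0 rose, with a median log2 fold change of -0.20, and with vehicle 7 fell and 3 rose with a median of -0.28, and the change differed between treatments for 7. With FGF6 the share called, 50%, was near that over all genes (48.2%). Egfr was at 82.8, 93.0 and 92.6 CPM at 4 h and 42.9, 44.3 and 47.2 CPM at 8 h (-1.001 ± 0.056, adjusted p = 1.39e-13). With vehicle it was at 68.3, 65.4 and 63.9 CPM at 4 h and 68.6, 80.3 and 73.9 CPM at 8 h (0.17 ± 0.054), and the difference was -1.17 ± 0.077 (adjusted p = 3.19e-11). Nrg1, a ligand of ERBB receptors, was at 38.8, 39.2 and 42.3 CPM at 4 h and 24.3, 23.6 and 23.3 CPM at 8 h (-0.75 ± 0.046, against 0.26 with vehicle, a difference of -1.01). Rhbdf2, an inactive rhomboid that matures the sheddase of EGF ligands, was at 23.8, 22.5 and 22.6 CPM at 4 h and 12.9, 11.9 and 11.9 CPM at 8 h (-0.91 ± 0.063, against 0.17 with vehicle, a difference of -1.08). Erbb2 fell in both treatments, and by 24 h of FGF6 Egfr was at 13.96 ± 0.396 CPM and Nrg1 at 9.48 ± 0.589 CPM.

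**Figure D3:**
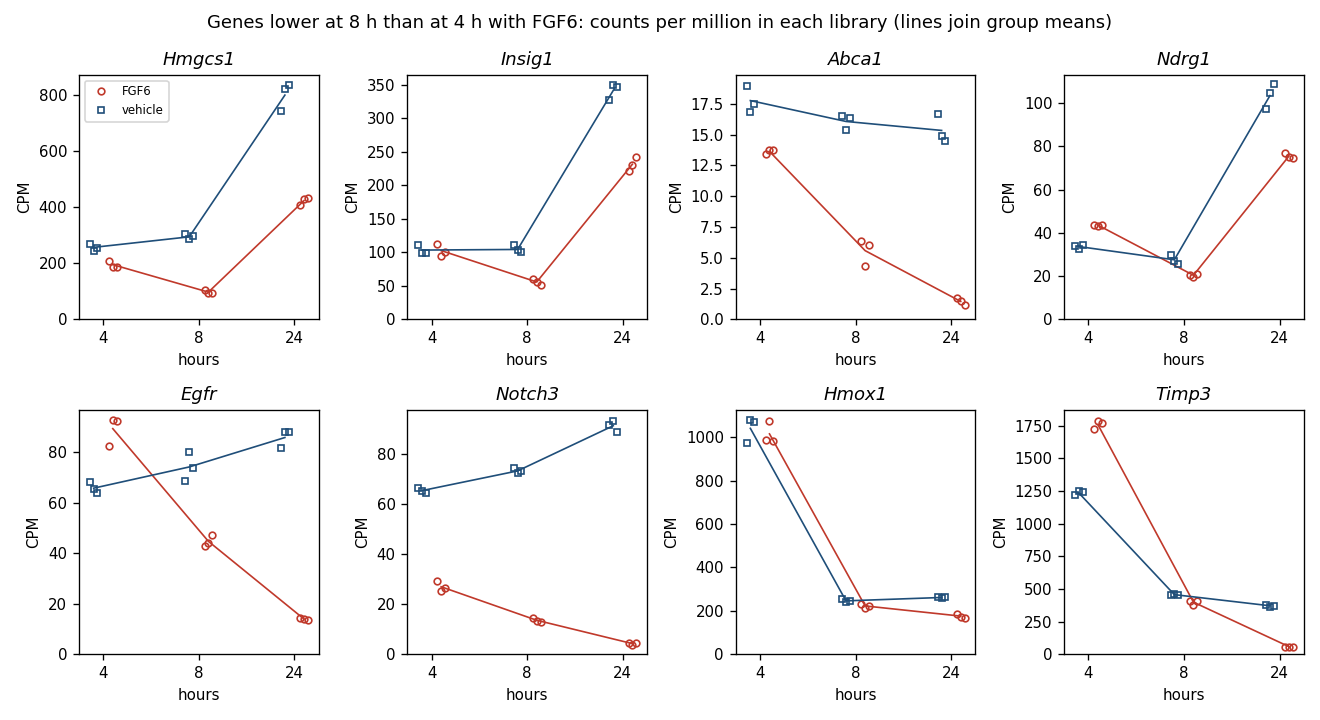
CPM in each library at 4, 8 and 24 h (categories), FGF6 as circles and vehicle as squares, lines joining the means of 3 libraries, for 8 genes that fell with FGF6. Hmgcs1, Insig1 and Ndrg1 are lowest at 8 h and higher at 24 h, Abca1, Egfr and Notch3 go on falling, and Hmox1 and Timp3 fall under both treatments.

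The extracellular matrix changed in both directions. Of the collagens and matrix glycoproteins, 30 of the 53 fell and 15 rose, with a median log2 fold change of -0.25, and with vehicle 16 fell and 21 rose with a median of 0.081, and the change differed between treatments for 37. Eln, elastin, had 5 to 19 counts in the 4 h libraries and 2 in each 8 h library, so no fold is given. Col27a1, a fibrillar collagen, was at 22.6, 22.8 and 23.5 CPM at 4 h and 6.28, 6.86 and 6.16 CPM at 8 h (-1.83 ± 0.087, adjusted p = 6.15e-15), with a difference of -1.31 from vehicle. Col1a1, the main chain of type I collagen, rose in both treatments, less with FGF6 (0.40 ± 0.051) than with vehicle (0.65, difference -0.25, adjusted p = 0.00991). Col2a1, a cartilage collagen, was at 3.36, 3.70 and 3.13 CPM at 4 h and 10.8, 10.7 and 11.01 CPM at 8 h (1.66 ± 0.13), and by 24 h at 2.77 ± 0.156 CPM. Of the matrix proteases and the plasminogen system, 20 of the 34 fell and 5 rose, with a median log2 fold change of -0.27, and with vehicle 14 fell and 7 rose with a median of -0.13, and the change differed between treatments for 20. Timp3, an inhibitor of metalloproteinases, was at 1722, 1785 and 1767 CPM at 4 h and 407, 379.7 and 409 CPM at 8 h (-2.14 ± 0.030, adjusted p = 3.30e-25), a 4.41-fold fall, and fell by 1.44 on the log2 scale with vehicle. Mmp2, gelatinase A, was at 169.8, 175 and 182 CPM at 4 h and 72.0, 59.5 and 61.2 CPM at 8 h (-1.45 ± 0.053, against -0.51 with vehicle, a difference of -0.94).

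Contractile and mural cell genes fell more often than they rose. Of the SRF and actin list, 23 of the 33 fell and 5 rose, with a median log2 fold change of -0.34, and with vehicle 21 fell and 5 rose with a median of -0.22, and the change differed between treatments for 18. Vcl, vinculin of focal adhesions, was at 286, 279 and 268 CPM at 4 h and 117, 115 and 119 CPM at 8 h (-1.24 ± 0.034, adjusted p = 2.36e-19), against -0.78 with vehicle, a difference of -0.47. Myl9, a myosin light chain, was at 40.2, 35.8 and 36.7 CPM at 4 h and 22.4, 19.0 and 19.5 CPM at 8 h (-0.89 ± 0.073), against 0.19 with vehicle, a difference of -1.08 (adjusted p = 4.31e-09). Of the markers of smooth muscle cells and pericytes, 6 of 8 were tested and 5 fell, with a summed level of 689, 647 and 653 CPM at 4 h and 459, 432 and 419.6 CPM at 8 h. Vehicle sums were 1015, 1044 and 1049 CPM at 4 h and 1085, 1111 and 1064 CPM at 8 h. Most of the sum was Acta2, and of the defining markers Abcc9 had a count of 0 in all 18 libraries and Myh11 was at 0.291 and 0.182 CPM. What part such cells had in the result was not tested. Cspg4, the NG2 proteoglycan, was at 105, 111 and 108 CPM at 4 h and 40.7, 41.8 and 44.2 CPM at 8 h (-1.36 ± 0.058), and -1.08 with vehicle. Of the skeletal muscle markers 5 of 9 were tested, 1 fell, and the sum was at most 9.35 CPM in the FGF6 libraries at 4 and 8 h. Of the endothelial markers, 3 of 8 were tested and 0 changed, and of the leukocyte markers 4 of 9, of which Cd68 fell (16.3, 16.7 and 16.6 CPM at 4 h and 9.77, 10.3 and 9.86 CPM at 8 h, -0.73 ± 0.075) and Cd14 was at 12.1, 11.03 and 10.5 CPM at 4 h and 11.3, 12.5 and 11.5 CPM at 8 h (adjusted p = 0.561).

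Genes of the Notch and BMP pathways fell more often than they rose. Of the Notch list, 10 of the 19 fell and 2 rose, with a median log2 fold change of -0.36, and with vehicle 7 fell and 2 rose with a median of -0.10, and the change differed between treatments for 9. Notch3 was at 29.1, 25.1 and 26.7 CPM at 4 h and 14.5, 13.1 and 13.1 CPM at 8 h (-0.98 ± 0.058, adjusted p = 4.67e-13), against 0.16 with vehicle, a difference of -1.15 (adjusted p = 2.00e-11). Lfng, a glycosyltransferase that tunes Notch, was at 9.10, 12.7 and 11.7 CPM at 4 h and 6.15, 5.61 and 6.29 CPM at 8 h (-0.90 ± 0.097). Of the BMP and TGF-beta list, 24 of the 48 fell and 5 rose, with a median log2 fold change of -0.23, and with vehicle 25 fell and 3 rose with a median of -0.22, and the change differed between treatments for 25. Inhba, the activin A subunit, was at 158, 141 and 143 CPM at 4 h and 65.0, 63.8 and 62.8 CPM at 8 h (-1.21 ± 0.052, adjusted p = 1.12e-15). Its vehicle level was 15.8 ± 0.899 CPM at 4 h and 9.15 ± 0.535 CPM at 8 h. Smad3, a transducer of TGF-beta, was at 87.0, 87.6 and 83.4 CPM at 4 h and 43.7, 45.3 and 46.3 CPM at 8 h (-0.93 ± 0.042, against -0.45 with vehicle, a difference of -0.48). Of the WNT list, 14 of the 46 fell and 8 rose, with a median log2 fold change of -0.053, and with vehicle 18 fell and 7 rose with a median of -0.064, and the change differed between treatments for 15. The share called in the WNT list, 47.8% with FGF6 and 32.6% for the difference, was near that over all genes (48.2% and 30.6%). Wnt11, a noncanonical ligand, was at 1.66, 1.66 and 1.58 CPM at 4 h and 0.326, 0.235 and 0.288 CPM at 8 h (-2.51 ± 0.33). With vehicle it was at 1.19 ± 0.369 CPM at 4 h and 0.398 ± 0.0837 CPM at 8 h.

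Among the genes that rose most, several were low with vehicle at 8 h, from 0.131 CPM (Adcy8) to 2.40 CPM (Kirrel3). Dkk2 (chr3:132085292-132180304), a secreted modulator of WNT receptors, was at 7.58, 7.30 and 6.91 CPM at 4 h and 33.7, 39.1 and 37.8 CPM at 8 h. Its 8 h libraries were far above the 4 h libraries, a 5.06-fold rise (2.34 ± 0.076, adjusted p = 6.31e-18), against 0.48 with vehicle, a difference of 1.86 (adjusted p = 2.87e-08), and the 24 h level was 77.3 ± 2.71 CPM. Adcy8 (chr15:64697084-64922296), a calcium-stimulated adenylyl cyclase that makes cyclic AMP, was at 1.07, 0.765 and 2.03 CPM at 4 h and 6.71, 6.49 and 7.64 CPM at 8 h. It rose 5.52-fold (2.46 ± 0.20, adjusted p = 2.57e-10) and was at 0.131 ± 0.0592 CPM with vehicle at 8 h. Col10a1, the collagen of hypertrophic cartilage, was at 2.55, 2.07 and 2.28 CPM at 4 h and 9.51, 10.1 and 11.3 CPM at 8 h (2.16 ± 0.16), and had returned to 2.57 ± 0.266 CPM by 24 h. Kirrel3, an adhesion protein of the immunoglobulin family, took the same course, at 2.14, 3.28 and 3.41 CPM at 4 h and 11.1, 11.6 and 12.5 CPM at 8 h (1.99 ± 0.17) and 3.40 ± 0.863 CPM at 24 h. With vehicle Kirrel3 was at 1.25 ± 0.326 CPM at 4 h and 2.40 ± 0.178 CPM at 8 h. Dock8, a guanine nucleotide exchange factor for CDC42 best known from leukocytes, was at 1.59, 2.07 and 1.67 CPM at 4 h and 7.32, 6.86 and 7.07 CPM at 8 h (1.98 ± 0.16, adjusted p = 1.82e-10) and went on to 52.5 ± 3.08 CPM at 24 h. Tslp, a cytokine of epithelial and stromal cells, was at 3.62, 2.87 and 2.84 CPM at 4 h and 11.7, 13.3 and 11.96 CPM at 8 h (1.99 ± 0.13), with -0.13 for vehicle and 12.2 ± 0.969 CPM at 24 h.

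The other genes with the largest rises were low. Tnni3k, a kinase that binds cardiac troponin I, was at 1.07, 1.43 and 0.975 CPM at 4 h and 4.13, 4.101 and 3.86 CPM at 8 h (1.78 ± 0.22). Grik2, a kainate receptor subunit, was at 0.296, 0.0637 and 0.325 CPM at 4 h and 1.30, 0.807 and 1.64 CPM at 8 h (2.48 ± 0.37), and Colec10, a collectin, at 0.185, 0.287 and 0.163 CPM at 4 h and 1.11, 1.18 and 0.781 CPM at 8 h (2.23 ± 0.37). Vehicle means at 4 and 8 h were 0.537 and 1.14 CPM for Grik2 and 0.184 and 0.142 CPM for Colec10. Hoxa7, a positional homeobox factor, was at 0.370, 0.382 and 0.366 CPM at 4 h and 1.66, 1.48 and 1.36 CPM at 8 h (2.000 ± 0.25), with vehicle at 4 h at 1.47 ± 0.357 CPM, and it rose with vehicle as well (0.76). In counts this low the fold rests on few reads, and Klhl1 and Nol4, also among the 12 largest, were under 2 CPM at 8 h. With vehicle, Nol4 went from 0.593 to 1.34 CPM between 4 and 8 h and Klhl1 from 0.130 to 0.0877 CPM.

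Txnip, an arrestin-like inhibitor of thioredoxin and glucose uptake, was the leading riser of the FoxO and PI3K list. It was at 12.1, 9.50 and 8.61 CPM at 4 h and 29.3, 29.1 and 28.2 CPM at 8 h (1.52 ± 0.095, adjusted p = 1.18e-12), and rose by 0.77 with vehicle from a higher level, 73.8 ± 5.52 CPM at 4 h. Of that list, 12 of the 31 fell and 9 rose, with a median log2 fold change of -0.18, and with vehicle 5 fell and 13 rose with a median of 0.13, and the change differed between treatments for 17. Igfbp4, which binds insulin-like growth factors, was at 33.9, 39.3 and 37.1 CPM at 4 h and 18.8, 17.6 and 17.6 CPM at 8 h (-1.03 ± 0.061, against 0.13 with vehicle, a difference of -1.16).

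**Figure D4:**
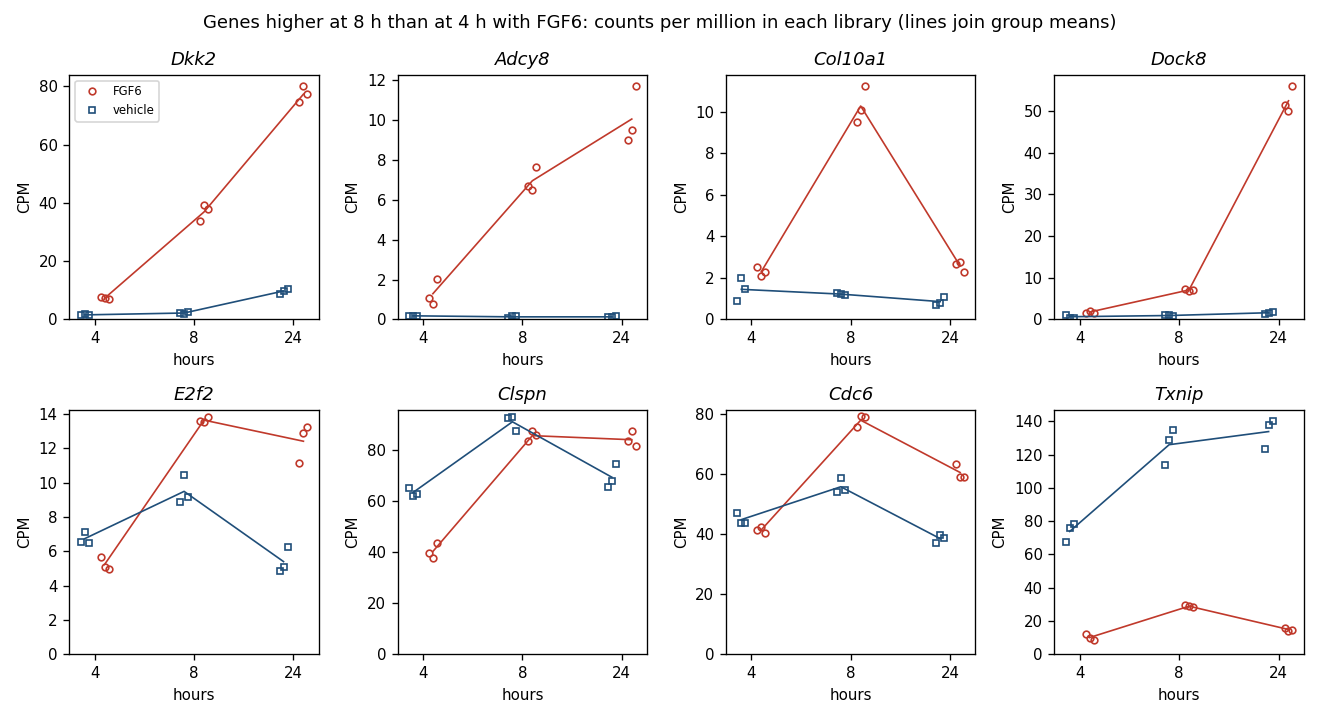
CPM in each library at 4, 8 and 24 h (categories), FGF6 as circles and vehicle as squares, lines joining the means of 3 libraries, for 8 genes that rose with FGF6. Dkk2, Adcy8 and Dock8 go on rising to 24 h, Col10a1 peaks at 8 h, and E2f2, Clspn and Cdc6 are no higher at 24 h than at 8 h.

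Scara5, a ferritin-binding scavenger receptor of stromal cells, was at 1.11, 1.05 and 1.22 CPM at 4 h and 0.0651, 0.202 and 0.247 CPM at 8 h (-2.73 ± 0.33, adjusted p = 1.52e-07), while vehicle libraries were at 5.45, 6.03 and 5.94 CPM at 4 h and 7.17, 8.74 and 8.39 CPM at 8 h (0.48 ± 0.11). The treatments went opposite ways, with a difference of -3.21 ± 0.34 (adjusted p = 9.82e-08). Ppfibp2, a liprin beta of cell adhesion, was at 43.5, 47.7 and 40.4 CPM at 4 h and 7.78, 8.27 and 6.70 CPM at 8 h (-2.53 ± 0.077, adjusted p = 1.98e-18), against -0.98 with vehicle, a difference of -1.55. The uncharacterized genes F830016B08Rik and BC023105 fell from 1.44 ± 0.642 and 4.23 ± 0.994 CPM to under 1 CPM.

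Among the genes with the largest differences from vehicle, some fell much less with FGF6 than with vehicle, or rose with FGF6. Nptx1, a neuronal pentraxin, was at 50.2, 51.3 and 57.2 CPM at 4 h and 36.5, 42.6 and 45.7 CPM at 8 h with FGF6 (-0.35 ± 0.076) and at 11.9, 13.4 and 11.05 CPM at 4 h and 1.04, 1.33 and 1.64 CPM at 8 h with vehicle (-3.19 ± 0.15), a difference of 2.84 ± 0.17 (adjusted p = 8.60e-12). Tmem200a, a membrane protein, was at 20.4, 20.97 and 22.0 CPM at 4 h and 43.9, 47.0 and 46.8 CPM at 8 h with FGF6 (1.12 ± 0.068), and fell by 1.32 on the log2 scale with vehicle from 1.54 ± 0.355 CPM. Pbp2, a phosphatidylethanolamine-binding protein, had a difference of 2.41 ± 0.55. With FGF6 it rose by 0.61 on the log2 scale, from 2.84 to 4.31 CPM. Its vehicle means were 0.313 ± 0.103 CPM at 4 h and 0.0852 ± 0.0646 CPM at 8 h. The 8 h mean lay under a count of 3 (0.0947 to 0.103 CPM in those libraries), so the difference rests on few vehicle reads. On the other side, Vsnl1, a calcium sensor, fell with FGF6 (1.77, 1.53 and 1.54 CPM at 4 h and 0.293, 0.336 and 0.370 CPM at 8 h, -2.27 ± 0.27) and rose with vehicle (2.63, 3.15 and 3.34 CPM at 4 h and 6.50, 7.85 and 8.25 CPM at 8 h, 1.31 ± 0.13). Of the 16 genes with the largest differences, 8 were at or under 3 counts in each library of a group, and no fold is given against those groups. Of these, Cd53, a tetraspanin best known from leukocytes, was at 0.259, 0.319 and 0.406 CPM at 4 h and 1.17, 0.975 and 1.23 CPM at 8 h with FGF6 (1.77 ± 0.34, adjusted p = 1.02e-04) and had 1 to 3 counts with vehicle at 8 h. Havcr2, the receptor TIM-3, was at 1.52, 1.53 and 1.38 CPM at 4 h and 2.54, 2.32 and 2.59 CPM at 8 h with FGF6 (0.74 ± 0.20, adjusted p = 0.00267). Slc17a1, a phosphate transporter, had 17 to 27 counts at 4 h of FGF6 and 0 to 3 at 8 h, and Omd, the matrix proteoglycan osteomodulin, had 8 to 23 and 2 to 3.

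Prostaglandin E2 is made by phospholipase A2, the cyclooxygenases and the PGE synthases, and the members described changed by less than 2-fold between 4 and 8 h of FGF6 apart from Akr1c18. Of the list, 5 of the 15 fell and 3 rose, with a median log2 fold change of -0.080, and with vehicle 10 fell and 1 rose with a median of -0.24, and the change differed between treatments for 8. The share called, 53.3%, was near that over all genes (48.2%). Akr1c18, a 20-alpha-hydroxysteroid dehydrogenase, was at 0.998, 0.924 and 1.10 CPM at 4 h and 2.73, 1.88 and 1.77 CPM at 8 h, with no overlap between the groups (1.09 ± 0.30, adjusted p = 0.00365). With vehicle it had 3 counts or fewer in each 4 h library, so no fold is given. Ptgs2, which encodes cyclooxygenase 2, was at 1288, 1254 and 1287 CPM at 4 h and 1267, 1172 and 1185 CPM at 8 h, with overlapping groups, and the log2 fold change was -0.080 ± 0.070 (adjusted p = 0.379). Without the filter on low counts edgeR made a call for Ptgs2 (-0.083, adjusted p = 0.0419), as it did with the FGF6 libraries at 4 and 8 h alone (-0.078, adjusted p = 0.0308). With vehicle it fell by 0.89 on the log2 scale from 154 ± 5.38 CPM, and the difference was 0.81 ± 0.10 (adjusted p = 1.21e-06). Ptgs1 likewise had no call with FGF6 (-0.049 ± 0.045, adjusted p = 0.399) and fell by 0.43 with vehicle, the sign of its FGF6 value turning with library totals as the scale. Ptges, the inducible PGE synthase, was at 135, 135 and 136 CPM at 4 h and 118, 117 and 121 CPM at 8 h (-0.19 ± 0.042, adjusted p = 6.08e-04), and Ptges2 was at 53.1, 52.8 and 47.6 CPM at 4 h and 46.8, 43.9 and 45.2 CPM at 8 h (-0.18 ± 0.054). Pla2g4a, cytosolic phospholipase A2, rose by 0.20 ± 0.038 on the log2 scale, and Pla2g12a by 0.15 ± 0.058. Abcc4 and Slco2a1, which move prostaglandins out of and into cells, fell (-0.76 ± 0.050 and -0.72 ± 0.036). Vehicle means at 4 and 8 h were 49.5 and 36.0 CPM for Abcc4 and 267 and 179 CPM for Slco2a1. For Ptges they were 47.0 and 39.8 CPM and for Ptges2 43.0 and 34.1 CPM, so these means were lower at 8 h too. Esrra, the nuclear receptor ERRα, fell by 0.18 on the log2 scale (adjusted p = 0.00682). Its mean at 4 and 8 h was 58.1 and 51.4 CPM with FGF6 and 35.6 and 28.3 CPM with vehicle. The calls of Esrra and Ptges2 were lost with library totals as the scale. The call of Ptges2 was also lost without 4 h replicate 1 or 2, and that of Pla2g12a without 4 h replicate 2 or 8 h replicate 3. Lrrfip1, a nucleic-acid binding partner of Flii, fell in both treatments (-0.45 ± 0.033 with FGF6 and -0.56 with vehicle), and Flii had no call (0.015 ± 0.037, adjusted p = 0.774).

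Cyclic AMP response genes, the targets that prostaglandin E2 receptors can reach through CREB, were called about as often as all genes (48.1%, against 48.2%). Of the list, 7 of the 27 fell and 6 rose, with a median log2 fold change of -0.027, and with vehicle 15 fell and 4 rose with a median of -0.16, and the change differed between treatments for 11. Pde4b, a cyclic AMP phosphodiesterase, was at 27.6, 25.7 and 23.6 CPM at 4 h and 42.9, 36.8 and 42.9 CPM at 8 h (0.67 ± 0.068, adjusted p = 1.00e-08), against -0.16 with vehicle, a difference of 0.83. Prkar2b, a regulatory subunit of protein kinase A, was at 71.4, 68.0 and 68.4 CPM at 4 h and 106, 106 and 106 CPM at 8 h (0.62 ± 0.037), and rose by 0.28 with vehicle.

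Clock genes fell more often than they rose in both treatments. Serum and growth factors can reset the clock of cultured cells, in which PER and CRY proteins repress their own transcription. Of 24 clock genes, 14 fell and 3 rose with FGF6, and 11 fell and 1 rose with vehicle. Per2 was at 15.0, 12.5 and 12.7 CPM at 4 h and 4.04, 2.39 and 3.41 CPM at 8 h (-2.03 ± 0.12, adjusted p = 4.45e-13), against -1.02 with vehicle, a difference of -1.02 (adjusted p = 2.64e-05). Ciart, a repressor of the clock, was at 8.25, 8.86 and 9.43 CPM at 4 h and 2.57, 2.35 and 2.51 CPM at 8 h (-1.83 ± 0.12) and at 11.1 ± 0.965 CPM at 24 h. Bhlhe40, also called DEC1, was at 172, 172 and 173 CPM at 4 h and 67.8, 62.8 and 62.7 CPM at 8 h (-1.42 ± 0.040) and at 120.1 ± 2.35 CPM at 24 h. Vehicle at 24 h was at 7.71 ± 0.729 CPM for Ciart and 131 ± 6.48 CPM for Bhlhe40.

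Of the remaining lists, p53 targets gave 11 lower and 4 higher of 24 with FGF6 (median -0.063), and 10 lower and 9 higher with vehicle (median -0.10). The share called was 62.5% with FGF6 and 79.2% with vehicle, against 48.2% and 43.0% of all genes. Fas, a death receptor, was at 6.99, 4.72 and 5.24 CPM at 4 h and 3.22, 3.03 and 3.16 CPM at 8 h (-0.84 ± 0.14), against 0.58 with vehicle, a difference of -1.42, and Plk2, a polo-like kinase, at 81.7, 84.9 and 86.9 CPM at 4 h and 39.7, 38.8 and 41.5 CPM at 8 h (-1.08 ± 0.048). Steroid receptors and glucocorticoid targets gave 11 lower and 8 higher of 27 with FGF6 (median 0.0090), and 13 lower and 2 higher with vehicle (median -0.14). Of these, 70.4% were called with FGF6 and 55.6% with vehicle. Of the chaperones and unfolded protein response genes of the endoplasmic reticulum, 10 fell and 10 rose of 36 with FGF6, against 6 and 24 with vehicle. Xbp1, a factor of that response, fell with FGF6 (83.7, 78.8 and 75.3 CPM at 4 h and 64.1, 57.0 and 56.9 CPM at 8 h, -0.42 ± 0.055) and rose by 0.25 with vehicle. Of 7 mitochondrially encoded genes tested of 13, 3 rose and 0 fell, although 2 fell with the replicate block or with the FGF6 libraries at 4 and 8 h alone, 3 without the filter on low counts or without 4 h replicate 1, and 1 without vehicle 24 h library 3. The subunit of complex I mt-Nd1 rose by 0.31 ± 0.029 with FGF6 and by 0.25 with vehicle on the log2 scale.

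**Figure D5:**
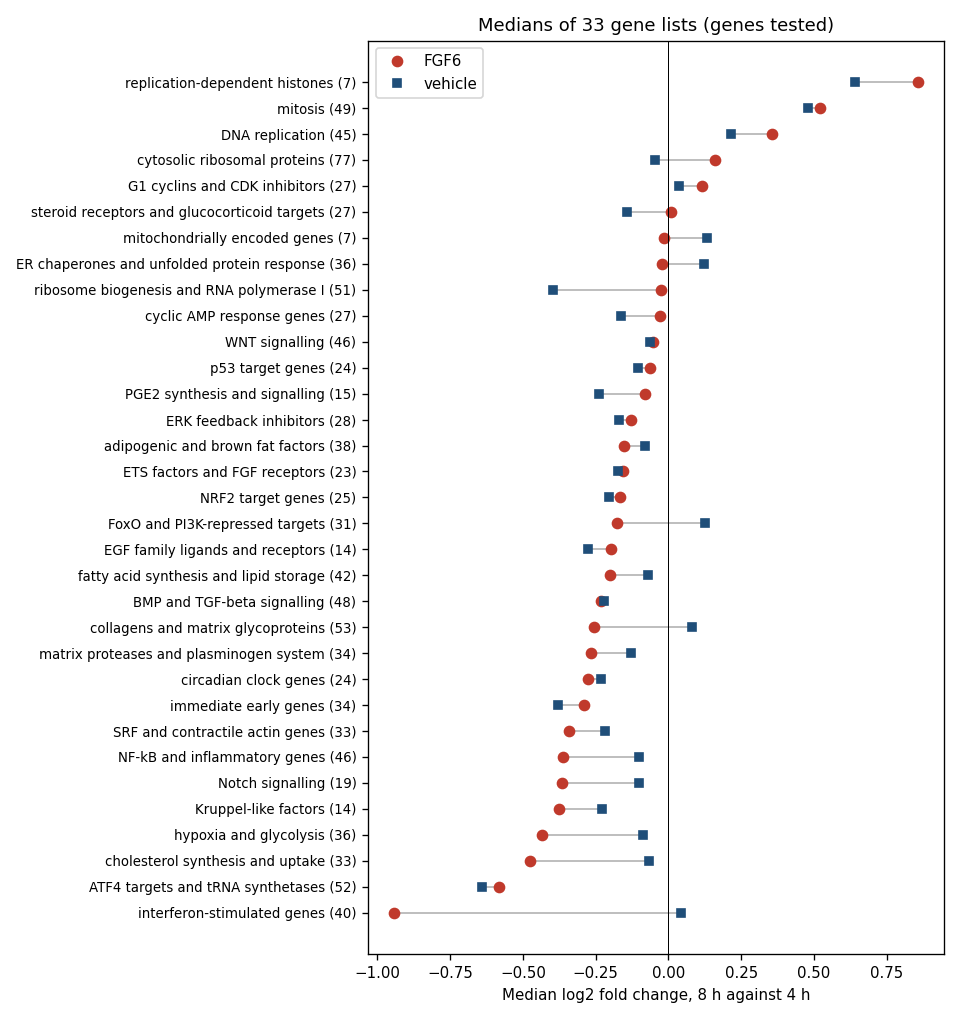
Median log2 fold change from 4 to 8 h of the genes tested in each of 33 lists (number in parentheses), FGF6 as red circles and vehicle as blue squares. The distance between the treatments is longest for the interferon-stimulated genes (-0.94 against 0.043), and the ATF4 and mitosis lists have nearly equal medians.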

How the data were processed

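Total RNA of the 18 libraries was sequenced on an Illumina instrument. The authors aligned the reads with STAR to GRCm38 and counted them per gene with featureCounts of the Subread package, and they deposited raw counts. Versions, strand setting and treatment of reads with several matches are not given in the sources used here. All count columns were mapped to a sample by name (0 were not).

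Counts were fitted with edgeR 4.0.16 in R 4.3.3 (quasi-likelihood, TMM factors, filterByExpr by group, Benjamini-Hochberg adjustment). The filter removed 32952 genes, 19409 of them with no count, and left 99.9502% of the counts. All 18 libraries entered 1 fit of group means. CPM values use the TMM-scaled totals, and folds, standard errors and adjusted p come from this fit. A count of 3 in a library was taken as the floor, which covers counting error only. On simulated counts for the FGF6 comparison over 14614 genes, 69.1% of 97 genes changed by 0.5 on the log2 scale and 84.5% of 103 changed by 1 were recovered, with 8 false calls.

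The genes described were the 12 with the largest rise and fall (adjusted p under 0.05, no overlap, at least 1 CPM), up to 4 of each of 39 lists by size of change, the 8 with the largest difference from vehicle each way, and genes of prostaglandin E2 synthesis that the study followed; not all of these are described. Members and lists were chosen with earlier results of these data known. Bst2, Myh11, Cd14, Ptprc, Adgre1 and the marker genes at 0 lie outside this rule and were named after their values were seen. Promoters (300 bases, RefSeq, GRCm38.p6) were searched for 9 motifs chosen after the counts were seen. Alternatives were limma 3.58.1 with voom, DESeq2 1.42.0, other scaling, filters, thresholds and subsets of libraries, a replicate block, and each library left out. Gene positions and overlaps are from the GENCODE annotation of GRCm38 given here, which may not be the release the authors counted on. Values were summarised and drawn with Python 3.11.15, pandas 2.3.3 and matplotlib 3.10.9.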

Additional observations from a re-analysis of the deposited data

Results flagged for a closer look

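The change from 4 to 8 h differed between FGF6 and vehicle for 4615 of the genes tested (edgeR's quasi-likelihood test of the difference, adjusted p under 0.05). Genes with at most 3 counts in each library of a group at 4 or 8 h were left out of the following ranking. Among the other genes described, log2 differences of FGF6 minus vehicle were largest upward for Adcy8 (2.94), Nptx1 (2.84), Colec10 (2.60), Tmem200a (2.44), Col10a1 (2.41) and Pbp2 (2.41). They were largest downward for Vsnl1 (-3.58) and Scara5 (-3.21). Although Pbp2 stayed in this ranking, its vehicle mean at 8 h, 0.0852 CPM, lay under a count of 3.

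Over all genes tested, 596 were called in opposite directions under the 2 treatments with a called difference, 304 higher and 292 lower with FGF6. Only those picked for description and not ranked above are named here, with log2 differences. Egfr (-1.17), Fas (-1.42), Hmgcs1 (-1.20), Igfbp4 (-1.16), Myl9 (-1.08), Notch3 (-1.15), Nrg1 (-1.01), Rhbdf2 (-1.08) and Xbp1 (-0.66) fell with FGF6 and rose with vehicle. Pde4b rose with FGF6 and fell with vehicle, with a log2 difference of 0.83. The fitted differences of Havcr2 (2.60), Scn7a (-4.18) and Sncaip (-3.39) rest on a group with at most 3 counts in each library, and such fitted values are no bound.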

How the results depend on the processing

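The number of genes changed with FGF6 was between 6914 and 7548 with voom, DESeq2, other scaling, other filters, fewer groups or the block. Without 1 FGF6 library it was between 6521 and 6801, and at an adjusted p under 0.25 it was 9694. At least 2-fold changes numbered 420 (64 higher and 356 lower) when 10 counts were required in every library, because fewer genes with low counts entered, and between 683 and 782 with 1 FGF6 library left out. The vehicle count was between 5731 and 6020 and the difference count between 4056 and 4431 with 1 library left out. Without both vehicle libraries numbered 1, chosen after seeing the data, they were 5517 and 4085. Without vehicle 24 h library 3, also chosen after seeing the data, they were 6493 and 4738. At an adjusted p under 0.25 the difference was called for 7397 genes. With library totals alone 4666 genes were higher and 2882 lower.

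Deviations from the group means of same-numbered FGF6 libraries had correlations of 0.033, -0.068 and 0.029, and those of vehicle libraries 0.180, 0.036 and 0.103. Since not all were above 0.1, the numbers were not taken to pair the samples. With the replicate block 7267 genes changed, 727 at least 2-fold, 6516 with vehicle and 4657 for the difference. The log2 fold change of Ptgs1, not called, turned to 0.013 with library totals alone, and the log2 fold change of Flii, not called, lay between -0.0016 and 0.0504 with 1 library left out, below 0 without FGF6.4h replicate 2, and the cause was not tested. Of 3020 values of 181 genes under alternatives, 2966 kept direction and call, 49 lost the call, 3 gained it and 2 turned. Genes of few counts were limited by depth.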
